A study of Homo sapiens with 6 samples.

Results

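The alpha and beta tubulins described here are 10 genes, TUBA1A, TUBA1B, TUBA1C, TUBA4A, TUBB, TUBB2A, TUBB2B, TUBB3, TUBB4B and TUBB6, chosen by gene symbol as tubulin isotypes of interest for cross-resistance to taxanes. They are 10 of the 58735 genes in the count table, 4 alpha and 6 beta, and all 10 passed the filter on low counts that left 15242 genes for testing. The libraries came from MDA-MB-231, an established triple-negative breast cancer (TNBC) cell line. The 3 parent libraries, whose genotype is given as WT, were compared with 3 libraries of ADRr cells, labelled ADR12, which are MDA-MB-231 cells resistant to Adriamycin (ADR, doxorubicin). According to the study's methods, ADRr cells were selected in stepwise rising concentrations of ADR and were then isolated by limiting dilution, so that an ADRr line stands for a selected clone. Both groups are labelled as grown in the same medium, and the dose of ADR at harvest, if any, is not given in the sources used here. Nothing says that the libraries of a group came from separate cultures, so the p-values below measure the spread between these libraries, which may be technical. The design text also speaks of 3 time points that no sample label gives, and any such difference would be part of the spread within a group.

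Microtubules are hollow polymers of alpha and beta tubulin heterodimers, and they build the mitotic spindle, serve as tracks for transport and shape the cell. Human cells carry several genes for each partner. The encoded isotypes are alike over most of their length and differ mainly in the acidic tail at the C-terminus, where enzymes add and remove tyrosine and glutamate residues and where many microtubule-associated proteins bind. Taxanes such as paclitaxel bind beta tubulin and stabilise microtubules, and levels of TUBB3, a beta isotype of neurons, have often been studied in connection with taxane response. ADR acts on DNA and topoisomerase II, not on tubulin.

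The coding ends of the isotypes are shown because they carry the isotype-specific tail and because they show which genes a sequencing read can tell apart. The sequences were read from GENCODE 29 transcripts on GRCh38, 5′ to 3′, and end at the stop codon. In the last 60 coding bases of the following 5 genes, capitals mark the last codon before the stop.
TUBA4A: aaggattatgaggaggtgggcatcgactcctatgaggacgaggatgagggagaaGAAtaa
TUBB: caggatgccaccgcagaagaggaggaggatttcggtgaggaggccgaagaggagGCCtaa
TUBB3: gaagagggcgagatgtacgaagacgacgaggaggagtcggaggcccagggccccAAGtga
TUBB4B: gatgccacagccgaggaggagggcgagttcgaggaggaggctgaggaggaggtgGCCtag
TUBB6: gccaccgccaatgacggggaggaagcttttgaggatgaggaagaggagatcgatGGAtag
TUBA4A ends in GAA, a codon for glutamate, where alpha tubulins commonly end in tyrosine.

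The closest pairs by coding sequence were TUBB2A and TUBB2B, which shared 98.1% of their aligned coding bases, and TUBA1A and TUBA1B, which shared 97.2%. The last 120 coding bases of the beta pair are shown with capitals at the positions where the partners differ.
TUBB2A: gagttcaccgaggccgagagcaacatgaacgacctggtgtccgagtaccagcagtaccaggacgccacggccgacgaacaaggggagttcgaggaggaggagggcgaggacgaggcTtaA
TUBB2B: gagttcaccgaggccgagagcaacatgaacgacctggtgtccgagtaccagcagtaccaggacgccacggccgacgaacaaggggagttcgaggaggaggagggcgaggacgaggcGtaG
In this window the beta pair differed at 2 bases. Over all transcripts, 41.4% of the distinct windows of 150 bases in TUBB2A and 36.1% of those in TUBB2B also occurred in another gene, as did 27.5% of those in TUBB3, each shared with the readthrough gene AC092143.1, against 1.80% in TUBB, 3.46% in TUBA1A, 6.43% in TUBA1B and 3.84% in TUBA1C. No window of TUBA4A, TUBB4B or TUBB6 was shared. The values of TUBB2A, TUBB2B and TUBB3 are uncertain for this reason. For TUBB2A and TUBB2B, the way reads with several matches were counted is not given in the sources used here. For TUBB3 the shared windows lie in exons that AC092143.1 also holds at the same place and on the same strand. The way reads that overlap both genes were counted is not given either.

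Of the 10 members, 6 fell in ADRr cells (TUBA1B, TUBA4A, TUBB, TUBB2A, TUBB4B and TUBB6), TUBA1A rose, and TUBA1C, TUBB2B and TUBB3 did not pass the test. A gene was called when edgeR's quasi-likelihood test gave a Benjamini-Hochberg adjusted p of at most 0.05 over all 15242 tested genes together with a fold change of at least 1.2. By this rule 58.8% of all tested genes were called, with 29.2% of tested genes higher and 29.6% lower in ADRr cells. Calls were thus common across the genome, and the members' split of 1 higher and 6 lower is to be read against these nearly even shares. The same 7 members were those whose ADRr and parent libraries did not overlap, which held for 69.2% of all tested genes. The median log2 fold change was -0.51 over the members and -0.01 over all tested genes. In bulk RNA, fewer cells of a type and less RNA per cell cannot be told apart.

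**Figure D1:**
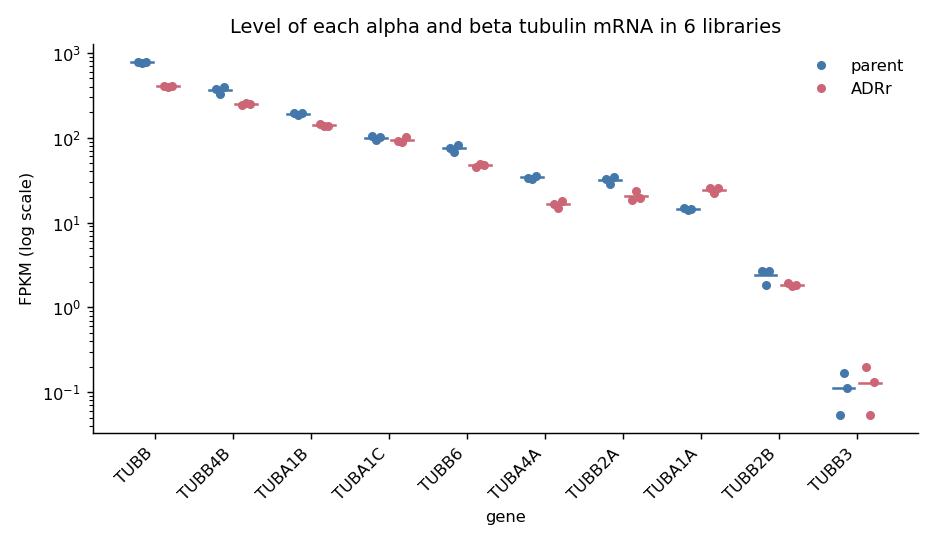
Level of each tubulin mRNA in FPKM (vertical axis, log scale) in the 3 parent and 3 ADRr libraries (points), with the group mean as a bar, genes ordered by their parent mean. Levels run from 774 FPKM for TUBB to 0.111 FPKM for TUBB3 in parent cells, and TUBA1A is the gene whose 3 ADRr points all lie above its 3 parent points. The level of TUBB3 is uncertain because its exons overlap those of AC092143.1 on the same strand.

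Levels were compared between genes as FPKM, the authors' value scaled to gene length and to the number of reads in the library. In parent cells TUBB was the most abundant member at 774 ± 17.6 FPKM (SD, n = 3), followed by TUBB4B at 367 ± 33.2, TUBA1B at 192 ± 6.09, TUBA1C at 100.2 ± 6.44 and TUBB6 at 75.5 ± 6.92. The lower ranks held TUBA4A at 33.9 ± 1.12 FPKM, TUBB2A at 32.0 ± 3.08, TUBA1A at 14.4 ± 0.288, TUBB2B at 2.40 ± 0.470 and TUBB3 at 0.111 ± 0.0571. The level and rank of TUBB3 are uncertain because its exons overlap those of AC092143.1 on the same strand. TUBA4A and TUBB2A were the only neighbours in this order whose libraries overlapped. In ADRr cells the first 5 and the last 2 ranks were held by the same genes, while TUBA1A moved from rank 8 to rank 6 and TUBA4A from rank 6 to rank 8. TUBA1A, at 24.4 ± 1.89 FPKM, and TUBB2A, at 20.5 ± 2.64 FPKM, were then the neighbours that overlapped. These ranks depend on the length by which the counts were divided, which is that of all exons of a gene. With the length of the principal transcript, TUBB4B and TUBA1B overlapped in both groups, TUBA1C and TUBB6 overlapped in parent cells, and TUBA4A stood above TUBB2A in ADRr cells, at 31.2 ± 2.84 against 22.2 ± 2.86 FPKM.

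Among the alpha tubulins, the direction differed from gene to gene. TUBA1A, an isotype known for its role in neuronal development, lies on the minus strand of chromosome 12 (GRCh38, 49184796 to 49189324). It had raw counts of 855, 786 and 883 in the parent libraries and of 1598, 1268 and 1619 in the ADRr libraries. All 3 ADRr libraries were above all 3 parent libraries, also after normalization, with 863 ± 15.1 normalized counts in parent and 1453 ± 109 in ADRr cells (SD, n = 3). A normalized count is the raw count scaled by the library's effective size to the mean effective size. The log2 fold change of TUBA1A was 0.75 (SE 0.0675, 95% confidence interval 0.61 to 0.89, edgeR adjusted p = 1.46e-09), a 1.68-fold higher level. The exons of TUBA1A share 490 bases, 14.3% of their length, with TUBA1C on the opposite strand.

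TUBA4A, an isotype abundant in platelets and muscle, moved the other way. It lies on chromosome 2 (219249711 to 219278170, minus strand). Its raw counts were 2336, 2171 and 2579 in parent and 1247, 1020 and 1364 in ADRr libraries, with no overlap between the groups. Normalized counts were 2421 ± 83.1 and 1176 ± 104, and the log2 fold change of -1.04 (SE 0.0645, edgeR adjusted p = 2.40e-12) was the largest decrease among the 10 members.

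TUBA1B, the main alpha isotype of most proliferating cells, lies on chromosome 12 (49127782 to 49131397, minus strand). It had 11838, 10684 and 12552 raw counts in the parent libraries and 9459, 8160 and 9096 in the ADRr libraries. The groups did not overlap, and normalized counts fell from 11988 ± 374 to 8679 ± 280, a log2 fold change of -0.47 (SE 0.0466, edgeR adjusted p = 8.49e-09). Of its exon bases, 36.6% lie opposite the antisense gene AC011603.2, which had 0 to 3 counts per library. TUBA1C, a close relative of TUBA1B on the same chromosome (49188736 to 49274603, plus strand), had 8291, 6976 and 8490 raw counts in parent and 7756, 6891 and 8803 in ADRr libraries. These groups overlapped. The log2 fold change of TUBA1C was -0.09 with a 95% confidence interval from -0.21 to 0.02 (SE 0.0560, edgeR adjusted p = 0.146).

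Among the beta tubulins, 4 of 6 fell, beside 29.6% of all tested genes called lower. TUBB, the main beta isotype of dividing cells, lies on chromosome 6 (30720201 to 30725426, plus strand). It had 44513, 40986 and 47574 raw counts in parent libraries and 24986, 22253 and 25194 in ADRr libraries. The ranges were far apart, and within each group the normalized counts were close together, 45493 ± 1036 in parent and 23532 ± 244 in ADRr cells. The log2 fold change was -0.95 (SE 0.0413, 95% confidence interval -1.04 to -0.87, edgeR adjusted p = 4.27e-15), and TUBB had the smallest SE among the members. The transcribed pseudogene TUBBP1, which holds 63 windows of 150 bases in common with TUBB, also fell, from 231 ± 10.6 to 107 ± 21.8 normalized counts (log2 fold change -1.12, SE 0.143, edgeR adjusted p = 3.58e-07), and reads of the shared windows cannot be told apart.

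TUBB4B, a beta isotype expressed in most tissues and enriched in cilia, lies on chromosome 9 (137241213 to 137243707, plus strand). It had 13485, 11288 and 15005 raw counts in parent and 9493, 9151 and 9803 in ADRr libraries. The parent libraries varied more among themselves than the ADRr libraries did, with 13568 ± 1231 against 9255 ± 285 normalized counts, and the groups did not overlap. The log2 fold change was -0.55 (SE 0.0556, edgeR adjusted p = 9.61e-09).

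TUBB6, a divergent beta isotype, lies on chromosome 18 (12307669 to 12344320, plus strand). It had 5248, 4575 and 6116 raw counts in parent and 3447, 3408 and 3619 in ADRr libraries, again without overlap. Normalized counts fell from 5435 ± 505 to 3409 ± 145, a log2 fold change of -0.67 (SE 0.0601, edgeR adjusted p = 1.31e-09). Its exons share 20.3% of their length with AFG3L2 on the opposite strand, which rose by 0.43 on the log2 scale.

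TUBB2A and TUBB2B are neighbouring genes on chromosome 6 (3153669 to 3157526 and 3224261 to 3231730, both on the minus strand). TUBB2A had 946, 803 and 1084 raw counts in parent and 584, 678 and 630 in ADRr libraries. The groups did not overlap, and the log2 fold change was -0.65 (SE 0.0893, edgeR adjusted p = 1.19e-06). TUBB2B, nearly the same in sequence, was far less abundant, with 99, 66 and 106 raw counts in parent and 77, 65 and 74 in ADRr libraries. Parent replicate 2 lay inside the ADRr range of TUBB2B, so the groups overlapped. The log2 fold change of TUBB2B was -0.40 (SE 0.188, unadjusted 95% confidence interval -0.79 to -0.01, edgeR adjusted p = 0.0688). Without parent replicate 2 the same gene had a log2 fold change of -0.55 and an edgeR adjusted p of 0.0115, and would have been called lower, while the adjusted p ranged from 0.0115 to 0.215 over all 17 alternatives.

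TUBB3, the beta isotype of neurons, lies on chromosome 16 (89921392 to 89938761, plus strand) and had counts close to the detection limit. It had 4, 12 and 9 counts in the parent libraries and 16, 4 and 11 in the ADRr libraries. The ranges overlapped. The log2 fold change of 0.22 had an SE of 0.532 and a 95% confidence interval from -0.88 to 1.33 (edgeR adjusted p = 0.730). Increases and decreases within this interval cannot be told apart with these counts. The direction also turned with single libraries, to -0.11 without parent replicate 1 and to -0.21 without ADRr replicate 1. Of the 4430 exon bases of TUBB3, 1584 (35.8%) lie in the readthrough gene AC092143.1 on the same strand, which had 0 counts in all 6 libraries. The principal transcript of TUBB3 is 1769 bases long. Whether reads that overlap both genes were left uncounted, which would lower the counts of TUBB3, was not tested. Its low FPKM and last rank are therefore uncertain as measures of its mRNA.

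**Figure D2:**
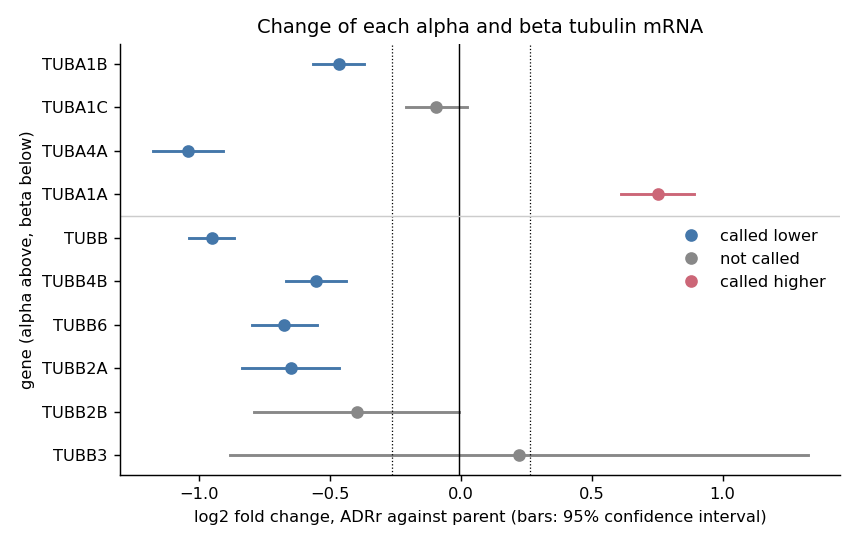
Log2 fold change of each tubulin mRNA in ADRr against parent cells (horizontal axis, points) with its 95% confidence interval (bars), alpha genes above and beta genes below. The solid line is the median of all tested genes and the dotted lines are the 1.2-fold threshold; the 6 genes called lower and TUBB2B lie left of it, TUBA1A lies right of it, and the interval of TUBB3 spans from -0.88 to 1.33.

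Since the members changed to different extents, their shares of the summed alpha or beta mRNA shifted. The summed FPKM of the 4 alpha members was 350, 325 and 346 in parent and 278, 263 and 282 in ADRr libraries, a ratio of means of 0.806. That of the 6 beta members was 1269, 1184 and 1301 in parent and 718, 731 and 721 in ADRr libraries, a ratio of 0.578. Both FPKM sums were lower in every ADRr library than in every parent library, and the beta sum by the larger factor. As raw counts, scaled neither to length nor to library size, the alpha sums overlapped, at 20617 to 24504 in parent and 17339 to 20882 in ADRr libraries. The ratio of beta to alpha mRNA was 3.68 ± 0.0704 in parent and 2.64 ± 0.123 in ADRr cells (SD, n = 3), without overlap. These sums and shares are descriptions without a test, and the level of the ratio depends on the gene length used: with the length of the principal transcript it was 2.46 ± 0.0507 and 1.80 ± 0.0804, and with raw counts not divided by length it was 2.80 ± 0.0477 and 1.95 ± 0.0872. As a share of all counts, the 10 members took 0.490 to 0.529% of a parent library and 0.326 to 0.330% of an ADRr library. Exons of opposite-strand genes overlap 36.6% of the exon bases of TUBA1B, 25.0% of TUBA1C, 20.3% of TUBB6, 18.1% of TUBA4A and 16.0% of TUBB. The overlap is 14.3% for TUBA1A, 7.93% for TUBB2B, 5.87% for TUBB4B and 0 for TUBB2A. The strand setting of the counting is not given, and the effect of these overlaps on levels, shares and the ratio was not tested.

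Within the alpha pool, TUBA1A made up 4.22, 4.37 and 4.14% in parent and 9.17, 8.44 and 9.01% in ADRr libraries. TUBA1C, whose level did not pass the test, had a larger share in every ADRr library, 34.3 ± 1.70% against 29.4 ± 0.783%. TUBA1B went from 56.4 ± 0.479% to 50.8 ± 2.04% and TUBA4A from 9.98 ± 0.269% to 6.02 ± 0.336%. Within the beta pool, TUBB went from 61.9 ± 1.65% to 55.6 ± 1.19% and TUBB4B from 29.3 ± 1.26% to 34.8 ± 0.668%, again without overlap. TUBB6 held 6.02 ± 0.282% and 6.56 ± 0.207%, and TUBB2B 0.191 ± 0.0295% and 0.254 ± 0.0123%, both without overlap. The shares of TUBB2A and TUBB3 overlapped between the groups.

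**Figure D3:**
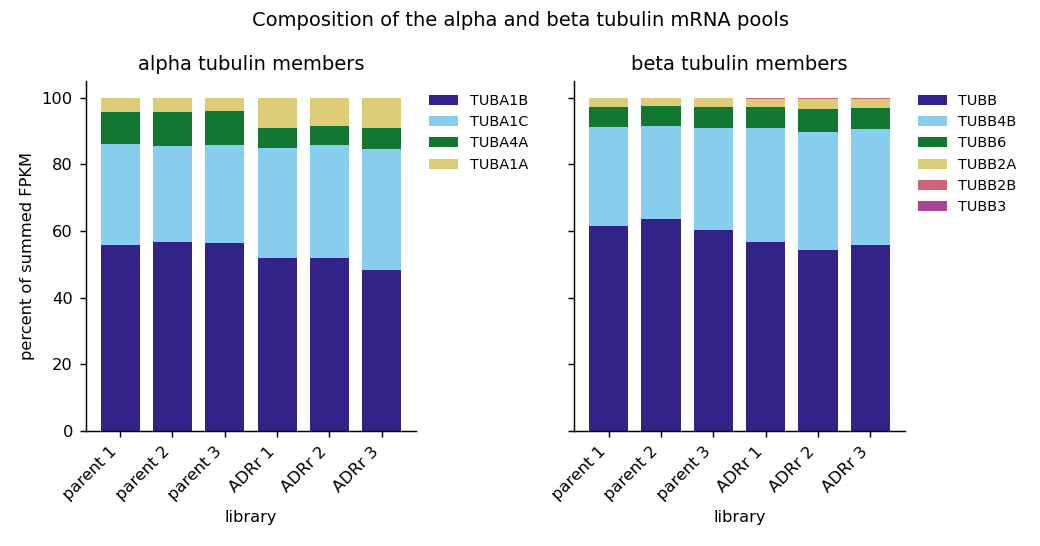
Share of each member in the summed FPKM of the 4 alpha (left) and 6 beta tubulin genes (right), in percent (vertical axis), for each of the 6 libraries (horizontal axis). TUBA1A grows from between 4.14 and 4.37% in parent to between 8.44 and 9.17% in ADRr libraries, and TUBB shrinks from 61.9 to 55.6% on average.

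Other alpha and beta tubulin genes contributed little. The table holds 58 genes and pseudogenes with an alpha or beta tubulin symbol, of which 29 had no count in any library and 14 were tested. Of 9 further protein-coding genes that were looked up, TUBA3D and TUBAL3 passed the filter. TUBA3D had 35, 36 and 32 counts in parent and 26, 40 and 42 in ADRr libraries, with overlap and a log2 fold change of -0.0049 (SE 0.282, edgeR adjusted p = 0.989), whose sign changed with the scaling. TUBAL3, an alpha-like gene, had 8, 2 and 9 counts in parent and 14, 23 and 20 in ADRr libraries and rose by 1.504 on the log2 scale (SE 0.479, edgeR adjusted p = 0.00859). This call was lost without ADRr replicate 2 (edgeR adjusted p = 0.0549), and the gene passed neither the filter of at least 10 counts in every library nor that on FPKM. TUBA3C, TUBA3E, TUBA4B, TUBA8, TUBB1, TUBB4A and TUBB8 had 0 to 9 counts per library and were not tested.

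Tubulin mRNAs are unusual in that their stability is tuned by the amount of free tubulin: TTC5 recognises the nascent N-terminus of alpha and beta tubulin on the ribosome and, through SCAPER and the CCR4-NOT deadenylase, directs the mRNA to decay. The first 12 coding bases, which encode the recognised end, were atgcgtgaatgc in TUBA4A, atgagggaaatc in TUBB and TUBB4B, atgagggagatc in TUBB3 and TUBB6, atgcgcgagatc in TUBB2A and atgcgtgagatc in TUBB2B. Of the 3 genes of this pathway that were tested, 1 fell (33.3%), beside 29.6% of all tested genes. This was TTC5, from 286 ± 13.2 to 202 ± 11.97 normalized counts (log2 fold change -0.50, SE 0.107, edgeR adjusted p = 0.000278). SCAPER (log2 fold change -0.16) and CNOT11 (-0.03) were not called.

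Before tubulin can polymerise, it is folded by prefoldin and the CCT chaperonin and assembled by the tubulin cofactors. Of 22 tested folding genes, 6 rose (27.3%) and 10 fell (45.5%), beside 29.2 and 29.6% of all tested genes, with a median log2 fold change of -0.14. The subunits of a single complex did not move together. In the CCT ring, CCT7 rose by 0.87 and CCT4 by 0.68 on the log2 scale (edgeR adjusted p = 2.69e-13 and 9.67e-11), while CCT2 fell by 0.59 (edgeR adjusted p = 2.50e-09). In prefoldin, PFDN2 rose from 1074 ± 92.9 to 3212 ± 163 normalized counts, while PFDN6 fell by 0.98 and PFDN5 fell by 0.76 on the log2 scale.

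The gamma tubulin ring nucleates microtubules at the centrosome, and the augmin (HAUS) complex branches new microtubules from existing ones. Of 24 genes of this group, 5 rose (20.8%) and 10 fell (41.7%), beside 29.2 and 29.6% of all tested genes, with a median of -0.05. TUBG1, the main gamma tubulin, had a log2 fold change of 0.11 (edgeR adjusted p = 0.138), while its paralog TUBG2 rose by 0.43. The ring component TUBGCP2 rose by 0.48 and TUBGCP4 fell by 1.65 on the log2 scale. TUBE1, the epsilon tubulin of centrioles, rose from 254 ± 28.8 to 652 ± 21.7 normalized counts, and the augmin subunit HAUS5 fell by 1.26 and HAUS6 fell by 1.11 on the log2 scale.

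Of 18 tested genes for enzymes that modify the tubulin tail and lysine 40 of alpha tubulin, 3 rose (16.7%) and 5 fell (27.8%), beside 29.2 and 29.6% of all tested genes. The median log2 fold change was -0.01. TTL, the ligase that adds the final tyrosine back, had a log2 fold change of -0.03 (edgeR adjusted p = 0.666), and SVBP, the partner of the detyrosinating vasohibins, of 0.0081 (edgeR adjusted p = 0.971). The sign of both turned when single libraries were left out. VASH1, a vasohibin, had 71, 36 and 51 counts in parent and 23, 25 and 34 in ADRr libraries and fell by 1.02 on the log2 scale (SE 0.285, edgeR adjusted p = 0.00342). On the log2(FPKM + 1) scale without a filter, which understates changes of low genes, VASH1 had a value of -0.25 and the call was lost (limma-trend adjusted p = 0.0899). Among the glutamylases and glycylases, TTLL1 rose by 1.25 and TTLL7 by 0.61, while TTLL3 fell by 1.22 on the log2 scale. AGTPBP1, which removes glutamates, rose by 0.50. ATAT1, the alpha tubulin acetyltransferase, fell by 0.86 (edgeR adjusted p = 2.52e-08), and the deacetylase HDAC6 fell by 0.32 (edgeR adjusted p = 0.000142) on the log2 scale.

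Of 43 tested genes for proteins that bind microtubules or set their dynamics, 11 rose (25.6%) and 16 fell (37.2%), beside 29.2 and 29.6% of all tested genes, with a median of -0.12. NAV2, MAP1B and NAV3, associated with neurite growth, rose by 0.97, 0.93 and 0.79 on the log2 scale. MAP4, the main structural microtubule-associated protein outside neurons, fell from 9624 ± 185 to 6589 ± 131 normalized counts (log2 fold change -0.55). STMN1, which sequesters tubulin dimers, fell by 0.41 on the log2 scale. The severing enzyme subunit KATNA1 fell by 1.10, MAP7 fell by 1.13 and GTSE1, a protein of mitotic microtubule ends, fell by 1.39. MAPT, which encodes tau, had 36, 44 and 36 counts in parent and 16, 29 and 20 in ADRr libraries and a log2 fold change of -0.90 (SE 0.318, edgeR adjusted p = 0.0162), a call that was lost without parent replicate 2, without ADRr replicate 1 or without ADRr replicate 3 (edgeR adjusted p = 0.0561, 0.0867 and 0.0606).

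Among 5 tested genes of taxane transport and metabolism, 2 rose and 2 fell, beside 29.2 and 29.6% of all tested genes. ABCB1, which encodes the efflux pump P-glycoprotein, had 0 counts in 5 libraries and 2 in ADRr replicate 1, below the floor of 3 counts, and was not tested. The pump gene ABCG2 rose from 75, 75 and 52 counts in parent to 237, 203 and 197 in ADRr libraries (log2 fold change 1.58, edgeR adjusted p = 1.78e-08). ABCC1, another pump, fell by 0.29 on the log2 scale, a decrease so near the 1.2-fold threshold that the call was lost without ADRr replicate 1 and with library size alone. PRR13, known as a taxane resistance gene, rose by 0.92, and the uptake carrier SLCO1B3 had 65, 50 and 61 counts in parent and 20, 6 and 9 in ADRr libraries and fell by 2.39 on the log2 scale.

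Most markers of dividing cells fell, as did 6 of the 10 tubulin members. Of 18 proliferation markers, 16 fell (88.9%, beside 29.6% of all tested genes), none rose and the median log2 fold change was -1.13. Their summed normalized counts lay between 74698 and 78580 in parent and between 34091 and 35067 in ADRr libraries. MCM5 fell by 2.21, TOP2A fell by 2.19 and PLK1 fell by 2.03 on the log2 scale, while BUB1 and UBE2C were not called. The part of proliferation in the tubulin result was not tested.

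Neuronal markers were examined because TUBB3, TUBA1A and TUBB2B are abundant in neurons. Of 15 markers, 4 were tested. SYP (log2 fold change 0.03, edgeR adjusted p = 0.939) and MAP2 (0.63, edgeR adjusted p = 0.194) were not called. SNAP25 and SYT1 rose, by 2.87 and 2.23 on the log2 scale, from 1 to 6 and 15 to 27 counts in parent to 27 to 43 and 81 to 112 counts in ADRr libraries. The summed normalized counts of the 15 genes were 72.5 to 88.5 in parent and 170 to 198 in ADRr libraries. The mean rose from 4.37 to 33.1 normalized counts for SNAP25 and from 19.7 to 92.9 for SYT1, the main part of that difference. RBFOX3, a defining neuronal gene that was not tested, had 7, 12 and 12 counts in parent and 1, 3 and 3 in ADRr libraries. The defining genes ELAVL4, NEFL, NEFM, GAP43, DCX and UCHL1 had no count in any library. Of 8 leukocyte markers, LAPTM5 was tested and rose by 0.68, while PTPRC had 0 to 2 counts per library. The cell line itself was as labelled in that VIM and CD44 were abundant and ESR1 and PGR had at most 1 count per library. ERBB2, also looked up as a low marker, had 1946, 1785 and 2303 counts in parent and 883, 882 and 905 in ADRr libraries. CD44 rose by 0.80 and EPCAM by 1.10, while KRT8 fell by 2.003, ERBB2 fell by 1.24 and CDH1 fell by 1.07 on the log2 scale. VIM, abundant in both groups, fell by 0.56.

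By the pattern over the 6 libraries, the genes nearest to TUBA1A were PARP14, LYRM7 and ADAMTS6, at root mean square distances of 0.0262, 0.0373 and 0.0416 in centred log2 CPM. Those nearest to TUBA4A were NFIA, GSTM1 and SH3RF2, at 0.0145, 0.0387 and 0.0434. The choice of these genes fixes that their difference between the groups is like that of the tubulin gene.

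Genes near the members on the chromosome were compared to see whether a member moved with its surroundings. The 10 nearest tested genes that are not members had a median log2 fold change of -0.45 around TUBA1A, which itself rose, with 5 called lower and 2 higher. The median was the same around TUBA1B, which lies close to TUBA1A, so that the neighbours are in part the same genes. Around TUBB and TUBB4B the medians were -0.47 and -0.40, the direction of both genes. Around each of these 2 genes, 6 neighbours were called lower and 3 higher, beside 29.6 and 29.2% of all tested genes. The neighbours ranged from -1.31 to 2.36 around TUBB and from -1.13 to 1.48 around TUBB4B. TUBB6 fell while its neighbours had a median of 0.47, with 5 called higher and 2 lower. TUBA4A fell by 1.04 beside neighbours with a median of -0.01, with 2 called higher and 3 lower. Around TUBA1C, TUBB2A and TUBB3 the medians were -0.04, 0.04 and 0.14.

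The promoters of the members, taken from RefSeq (GRCh38.p14) as 250 bases before to 50 bases after each start, gave 15 starts over the 10 genes. Counting a match on either strand, CCAAT occurred at 9 of the 15 starts, against 34.6% of all 35116 promoters, and GGGCGG also at 9 of the 15, against 44.95%. TTTGAA occurred at 4 of the starts and TATAAA at 1, against 15.2 and 11.5%. CCAAT was found in 7 of the 10 members. These were TUBA1A, which rose, TUBB, TUBB4B and TUBB6, which fell, and TUBA1C, TUBB2B and TUBB3, which were not called. No match lay in the windows of TUBA1B, TUBA4A and TUBB2A, which fell. The starts of a gene overlap in part and are not independent, and a match is a description of letters in this window.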

How the data were processed

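Polyadenylated RNA of 3 parent and 3 ADRr libraries was sequenced in paired-end mode on a NovaSeq instrument. Per the submitters' processing notes the tools were fastp, HISAT2 2.0.5, featureCounts 1.5.0-p3 and DESeq2 1.20.0, on GRCh38. The study's methods name another library kit than the sample records, and the strand setting of the counting is not given in the sources used here. The authors deposited raw, unnormalized counts and the FPKM derived from these counts. Library totals were 15983985 to 18272314 counts, at which 3 counts, the limit that a count of 0 allows, correspond to 0.164 to 0.188 CPM (counting error only).

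Counts were filtered with filterByExpr, normalized with TMM and compared in R 4.3.3 with edgeR 4.0.16 (quasi-likelihood test, Benjamini-Hochberg adjustment). The SE was derived from the log2 fold change and its F value. The median SE over all genes was 0.0964. Replicates of a group differed by more than sampling noise (chi-square per degree of freedom 2.59 to 8.32).

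The members and the gene lists were chosen with earlier results of these data known. Genes named were the members, the other alpha and beta tubulins, the 3 largest called increases and decreases of each list, TTC5, TTL, SVBP, ATAT1, HDAC6, MAPT, MAP4, STMN1, ABCB1 and TUBG1 whatever their result, and for TUBA1A and TUBA4A the 3 genes nearest in pattern whose mean was 100 normalized counts or more. SCAPER, CNOT11, VIM, BUB1, UBE2C, TUBBP1, AFG3L2, SYP, MAP2, AC092143.1 and markers at or near 0 were named after their values were seen. Alternatives were other scalings (DESeq2's size factors, library size alone), DESeq2 1.42.0, omission of the filter, a minimum of 10 counts in each library, calls by adjusted p only or with a log2 threshold of 1.2, limma-trend 3.58.1 on FPKM with pseudocounts of 1 and 0.1 (mean FPKM of at least 0.5, or no filter), a replicate block, each library left out, and for the pools raw counts, all tubulin genes and, chosen after seeing the data, the length of the principal transcript. Some coding sequences are not reported here.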

Additional observations from a re-analysis of the deposited data

How the results depend on the processing

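The calls of the members (1 higher, 6 lower) were the same in number under every alternative except 2. With an absolute log2 fold change of 1.2 no member was called (0 higher, 0 lower), beside 1114 genes higher and 972 lower of all tested. With parent replicate 2 left out, 7 members were lower, TUBB2B being added, so the members lower ranged from 6 to 7 over the libraries left out. The log2 fold changes ranged over all alternatives from 0.71 to 0.82 for TUBA1A, from -0.98 to -0.92 for TUBB and from -1.10 to -0.97 for TUBA4A. With libraries left out, TUBB3 ranged from -0.21 to 0.61, TUBA3D from -0.14 to 0.21, TTL from -0.079 to 0.028 and SVBP from -0.10 to 0.098, each turning sign. TUBA3D was also at 0.021 with library size alone and at 0.0047 with at least 10 counts in every library. The cause of these changes was not tested, and none of these 4 genes was called. The replicate numbers did not pair the libraries: deviations of same-numbered libraries correlated at 0.0074, -0.02 and -0.05. The replicate block gave 1 member higher and 6 lower, with 4406 genes higher and 4464 lower, and changed no member's call. With the length of the principal transcript the summed FPKM fell by 139 for alpha and fell by 687 for beta members. With the length of all exons it fell by 66.0 for alpha and fell by 528 for beta members. Low counts limit TUBB3, TUBAL3, TUBA3D and ABCB1, which had at most 42 counts in a library.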
